A study of Mus musculus with 8 samples.

Results

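Small nucleolar RNAs (snoRNAs) are short RNAs that guide the chemical modification and processing of ribosomal RNA in the nucleolus. Most mammalian snoRNAs are cut out of introns, and their host genes are either protein-coding or, as here, give a spliced RNA with little or no coding potential whose best known product is the intron. The spliced RNAs of several such hosts carry a run of C and T bases at their start, like the messages of ribosomal proteins, and are degraded by nonsense-mediated decay while they are translated. The levels of 8 noncoding host genes, Gas5, Snhg1, Snhg3, Snhg4, Snhg5, Snhg6, Snhg8 and Snhg12, were followed in late 2-cell mouse embryos. They were found by symbol, current or older, among 30888 genes fitted on the array, and each was named on 1 transcript cluster (the array's unit of measurement). Snhg5 and Snhg6 were the only names on theirs. The other 6 shared the cluster with small RNAs that RefSeq places inside the host: Gas5 with Snord47, Snhg1 with Snord22, Snhg3 with Snora73a, Snhg4 with Snora74a and Mir1949, Snhg8 with Snora24, and Snhg12 with Snord99, Snora61 and Snora44. The level of such a cluster can hold signal of both, so these 6 are called clusters below.

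RNA was measured on 8 Affymetrix arrays, each loaded with a pool of 100 embryos from B6C3F1 x CD1 matings after stimulation with PMSG and hCG, 10 IU each. Of 4 groups with 2 pools each, 1 was left non-manipulated in KSOM(aa) medium, 1 was injected into the ooplasm at the mid-pronuclear stage with Trim21 mRNA, 1 with Trim21 mRNA and an antibody against COPS3 (called the full treatment below), and 1 with the antibody alone. The ligase TRIM21 recognises antibody-bound proteins and has them degraded together with the antibody. COPS3 belongs to the COP9 signalosome, a regulator of cullin ubiquitin ligases, and the design gives no group with a control antibody. Embryos had 28 h of culture per the protocol (24 h per the age label). Per the labels, non-manipulated and Trim21 mRNA embryos formed 2 cells normally, and many zygotes stayed undivided in both groups given the antibody. The 4 groups were handled on different days and the pools of a group on the same one, so day and group cannot be told apart, and p-values measure only the spread between pools of 1 day.

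The median log2 level of the arrays ran from 4.75 to 5.29, highest in the full treatment (5.15 and 5.29) and in pool 1 of antibody alone (5.24), where high levels also stopped at a shared ceiling. The ceiling stood at 18.88 or above, while the highest level of any host gene on any array was 10.74. Trim21 stood between 9.77 and 10.40 in the 4 pools given its mRNA and between 5.65 and 6.76 in the others. The 6 markers of the 2-cell embryo had pool medians from 10.11 to 12.46, and all 6 were higher in the full treatment than with Trim21 mRNA, with a median difference of 1.77. Of 5 markers of the oocyte and early embryo, 1 fell and 1 rose in that contrast (Zp3, −1.59, and Bmp15, 1.69), and 3 rose with antibody alone against non-manipulated embryos (Gdf9, 0.84, Bmp15, 1.54, and Oosp1, 1.18). Pool medians of sperm, cumulus, oviduct and blood markers lay between 4.12 and 6.04. Of 10 cumulus markers 1 fell (Amhr2, −3.33) and 1 rose (Has2, 0.56) in the full treatment against Trim21 mRNA, with a median of 0.29. In the same contrast 1 of 4 oviduct markers fell (Epcam, −2.34), 1 of 7 sperm markers rose (Smcp, 0.51) and 0 of 4 blood markers passed. Single markers were high, namely Amhr2 (12.02 and 11.99 in the non-manipulated pools), Epcam (10.66 and 10.55) and Inha (10.32 in non-manipulated pool 2 alone). The part of other cells and of embryo stage in the results below was not tested. In pooled embryos, fewer embryos of a stage and less RNA per embryo cannot be told apart.

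Where these transcripts begin is shown first, since a start within a pyrimidine run is the sequence feature the spliced hosts are known for. RefSeq promoter windows on GRCm38.p6 were held for 6 of the 8 genes, and Snhg4 and Snhg6 are named only. Each line gives 50 bases before and 50 bases from the annotated start, 5′ to 3′ on the strand of the gene. Capitals mark the run of C and T that holds the start, or, in Snhg5, the nearest run of at least 6 that begins after it.
Gas5, chr1:161035116-161035215, plus strand: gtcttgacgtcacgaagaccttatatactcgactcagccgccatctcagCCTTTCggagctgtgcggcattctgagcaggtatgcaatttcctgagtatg
Snhg12, chr4:132308628-132308727, plus strand: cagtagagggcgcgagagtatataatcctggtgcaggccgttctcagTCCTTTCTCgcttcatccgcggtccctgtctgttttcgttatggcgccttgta
Snhg8, chr3:123508287-123508386, minus strand: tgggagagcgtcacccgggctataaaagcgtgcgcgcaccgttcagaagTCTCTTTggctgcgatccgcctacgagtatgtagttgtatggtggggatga
Snhg1, chr19:8723437-8723536, plus strand: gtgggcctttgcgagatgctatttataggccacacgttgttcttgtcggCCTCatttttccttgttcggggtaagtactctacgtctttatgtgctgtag
Snhg5, chr9:88522848-88522947, minus strand: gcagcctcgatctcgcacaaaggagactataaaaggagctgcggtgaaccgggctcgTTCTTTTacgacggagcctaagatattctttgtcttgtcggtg
Snhg3, chr4:132353637-132353736, minus strand: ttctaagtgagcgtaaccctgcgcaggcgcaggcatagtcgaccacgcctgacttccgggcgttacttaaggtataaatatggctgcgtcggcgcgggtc

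The run at the start was 6 bases in Gas5, 9 in Snhg12, 7 in Snhg8 and 4 in Snhg1. In Snhg1 a longer run of 9 began 4 bases after the start, and in Snhg5 a run of 7 began 7 bases after it. Snhg3 had no run of at least 6 at its annotated start or within 10 bases of it, nor did another, upstream start annotated for Gas5. Among 32851 RefSeq windows of the same length, 7.25% had a run of at least 6 that held the start and 14.0% a run of at least 4. A run of at least 6 that began within 10 bases of the start was in 23.1%. The E-box letters CACGTG (their own reverse complement, searched in the whole window of 250 bases before and 50 after the start) were in 7.15% of all windows and in 0 of the 7 windows of the host genes.

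The full treatment was compared with Trim21 mRNA to see what the antibody changed where both groups carried the injected message. Snhg6 and the Snhg3, Gas5 and Snhg1 clusters fell, by 2.68-fold, 4.03-fold, 2.06-fold and 1.62-fold, and Snhg12, Snhg8, Snhg4 and Snhg5 did not pass the test. With limma and Benjamini-Hochberg adjustment over all genes, 4 of the 8 host genes were lower at an adjusted p under 0.05, where 14.6% of all genes were lower and 8.78% higher. Among the 10719 genes with a mean level in the range of the host genes (5.59 to 9.42), 22.3% were lower. The median difference of the 8 was −0.76, against 0.21 for all genes and −0.08 in that range of level. Both pools of the full treatment lay below both pools of Trim21 mRNA for all 8, as they did for 26.6% of all genes.

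The Snhg3 cluster hosts the closely related snoRNAs Snora73a and Snora73b, needed for early steps of ribosomal RNA processing. Its log2 level was 9.82 and 9.85 in the non-manipulated pools, 10.02 and 9.81 in the Trim21 mRNA pools, 8.94 and 9.42 with antibody alone and 8.01 and 7.80 in the full treatment. The full treatment was thus the lowest group, antibody alone stood between, and the other two overlapped. The fall against Trim21 mRNA was −2.01 ± 0.20 (difference of mean log2 level ± standard error of the limma fit, n = 2 pools a group, adjusted p = 0.00065). It was −1.36 after quantile normalization (adjusted p = 0.00124) and −1.42 after cyclic loess.

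Gas5, named for its rise in growth-arrested cells, hosts many box C/D snoRNAs, the class that guides methylation. The level of its cluster was 8.91 and 8.90 in the non-manipulated pools, 8.71 and 8.76 in the Trim21 mRNA pools, 8.66 and 8.75 with antibody alone, and 7.67 and 7.72 in the full treatment. The pools of the full treatment stood apart below all others, and those of antibody alone and Trim21 mRNA overlapped. The fall against Trim21 mRNA was −1.04 ± 0.14 (limma, adjusted p = 0.00214). It was −0.52 after quantile normalization (adjusted p = 0.0346), which forces the arrays to 1 distribution. In RefSeq Gas5 overlaps Zbtb37, whose difference was 0.05 ± 0.44 (adjusted p = 0.945).

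Snhg6 hosts Snord87, a box C/D snoRNA, and overlaps Mcmdc2. Its level was 7.56 and 7.45 in the non-manipulated pools, 7.15 and 7.25 in the Trim21 mRNA pools, 5.64 and 6.51 with antibody alone and 5.75 and 5.81 in the full treatment. Both groups given the antibody were low and overlapped each other. Against Trim21 mRNA the full treatment was lower by −1.42 ± 0.27 (limma, adjusted p = 0.0108). The call was lost without any 1 of the 4 pools of these groups (adjusted p from 0.0565 to 0.0769). The strand of the array's probes is not given in the sources used here. The overlapping gene Mcmdc2 was between 4.39 and 4.87 on all arrays, with a difference of 0.23 ± 0.18 (limma, adjusted p = 0.374).

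Snhg1 hosts a row of box C/D snoRNAs. The level of its cluster was 8.51 and 8.45 in the non-manipulated pools, 8.13 and 8.18 in the Trim21 mRNA pools, 8.17 and 8.61 with antibody alone, and 7.54 and 7.37 in the full treatment. The full treatment was below every other pool, and antibody alone spanned the non-manipulated pools. The fall against Trim21 mRNA was −0.70 ± 0.19 (limma, adjusted p = 0.0371). The call held after median centring (−0.9, limma, adjusted p = 0.0275). It did not hold after quantile normalization (−0.26, adjusted p = 0.218) or cyclic loess (−0.26, adjusted p = 0.207). Nor did it hold without any 1 pool of the non-manipulated, Trim21 mRNA or full treatment groups, with differences from −0.79 to −0.62.

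Snhg12 hosts Snora16a, Snora44, Snora61 and Snord99. The level of its cluster was 7.97 and 7.91 in the non-manipulated pools, 7.58 in both Trim21 mRNA pools, 6.67 and 7.44 with antibody alone and 6.86 and 6.65 in the full treatment. The groups without antibody did not overlap those with it, and the antibody-alone pools reached from the level of the full treatment almost to that of Trim21 mRNA. The difference against Trim21 mRNA, −0.83 ± 0.26, missed the threshold (limma, adjusted p = 0.059). Its standard error also draws on the antibody-alone pools, whose standard deviation was 0.54. In a fit of only the groups compared the same difference passed (limma, adjusted p = 0.0103). It did not pass after median centring (−1.03, limma, adjusted p = 0.052), quantile normalization (−0.58, adjusted p = 0.0763) or cyclic loess (−0.54, adjusted p = 0.0942).

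Snhg8, the host of the H/ACA snoRNA Snora24, stood as a cluster at 7.55 and 7.39 in the non-manipulated pools, 7.16 and 7.22 in the Trim21 mRNA pools, 6.89 and 8.09 with antibody alone, and 6.90 and 6.69 in the full treatment. Snhg5, which hosts box C/D snoRNAs, was at 9.67 and 9.82, 9.21 and 9.24, 8.71 and 10.74, and 9.12 and 8.88 in the same order. The Snhg4 cluster, whose gene hosts the H/ACA snoRNA Snora74a, had the levels 6.0 and 5.77, 5.67 and 5.58, 5.14 and 5.88, and 5.29 and 5.36. In all 3, pool 2 of antibody alone lay above both Trim21 mRNA pools and its pool 1 below them. Their differences between the full treatment and Trim21 mRNA were −0.40 ± 0.36 (Snhg8), −0.23 ± 0.57 (Snhg5) and −0.30 ± 0.25 (Snhg4), with limma's adjusted p of 0.432, 0.787 and 0.395. These standard errors also draw on the antibody-alone pools, whose standard deviation was 0.85 in Snhg8, 1.44 in Snhg5 and 0.52 in Snhg4. In a fit of only the 4 arrays compared none of them passed either (limma, adjusted p = 0.0851, 0.262 and 0.127). The sign for Snhg5 turned after quantile normalization (0.50) and cyclic loess (0.39).

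**Figure D1:**
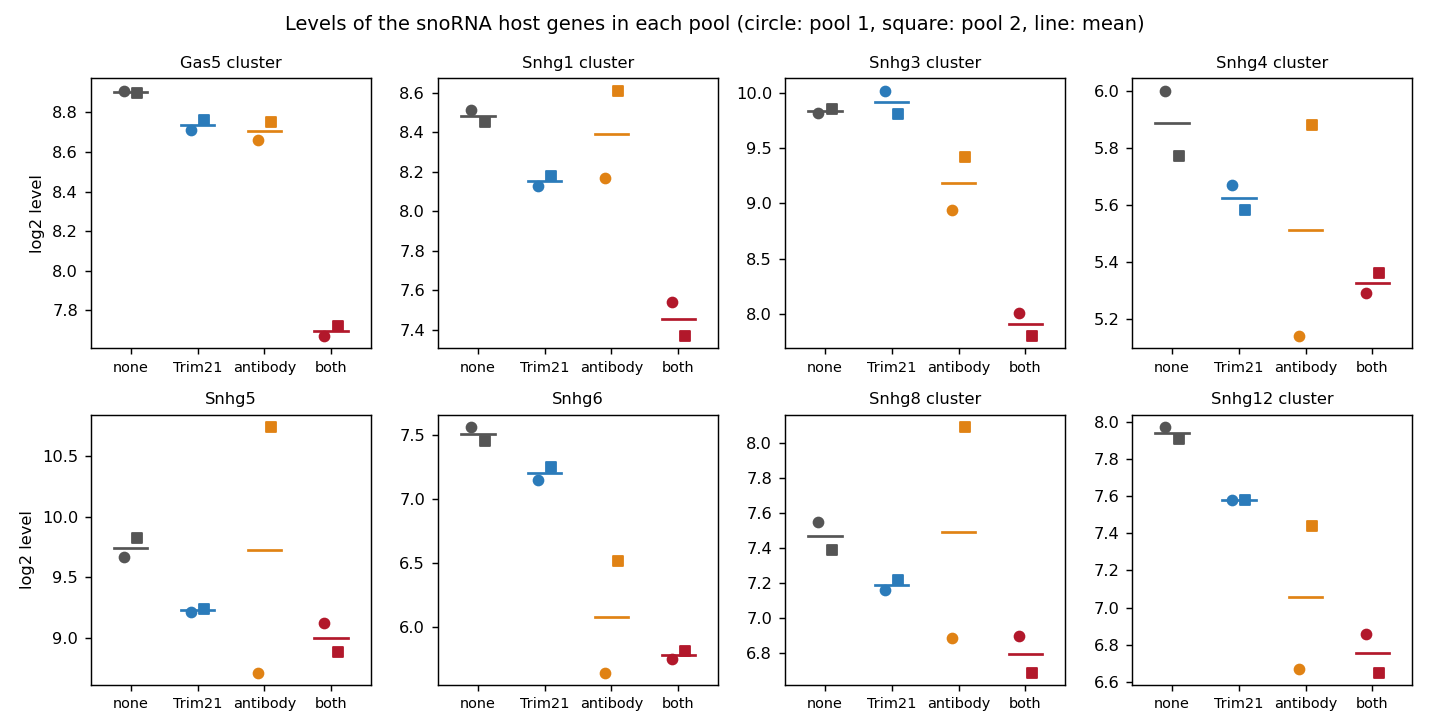
Log2 level of each host gene in every pool (circles pool 1, squares pool 2, lines group means; none: non-manipulated, Trim21: Trim21 mRNA, antibody: antibody alone, both: the full treatment). The axis of each panel has its own range and does not start at 0. Both pools of the full treatment lie below both Trim21 mRNA pools in all 8 panels, and the pools of antibody alone lie farthest apart in Snhg5 (8.71 and 10.74).

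Antibody alone was compared with non-manipulated embryos, a contrast that shares no pool with the first. Snhg6 fell 2.69-fold and was the 1 host gene of 8 that passed the test, at −1.43 ± 0.27 (limma, adjusted p = 0.0235). Of all genes 7.35% were lower and 2.77% higher, and 11.8% were lower in the host genes' range of level. The call for Snhg6 was lost without either non-manipulated pool (adjusted p = 0.176 and 0.142) or either Trim21 mRNA pool (0.0615 for each), and in a fit of only these 4 arrays. The median difference of the 8 was −0.29, against 0.18 for all genes and −0.11 in the same range of level.

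The next largest differences did not pass the threshold. They were −0.89 ± 0.26 for the Snhg12 cluster (limma, adjusted p = 0.0779) and −0.66 ± 0.20 for the Snhg3 cluster (adjusted p = 0.0958). Both antibody-alone pools were below both non-manipulated pools in Snhg12, Snhg3, Snhg6 and Gas5, a pattern found in 21.6% of all genes. The difference was −0.20 ± 0.14 in the Gas5 cluster, −0.38 ± 0.25 in Snhg4, −0.09 ± 0.19 in Snhg1, −0.02 ± 0.57 in Snhg5 and 0.02 ± 0.36 in Snhg8, none of which passed the test. Directions near 0 here depend on the scaling: Gas5, Snhg1 and Snhg5 turn positive after quantile normalization (0.13, 0.21 and 0.31) and Snhg8 turns negative after median centring (−0.11).

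The pools of antibody alone differed more than those of any other group. All 8 host genes were higher in pool 2 than in pool 1, by 0.09 (Gas5) to 2.03 (Snhg5) with a median of 0.76. Over all genes the median gap was −0.18, in the host genes' range of level it was 0.12, and 37.2% of all genes were higher in pool 2. In the other 3 groups the gaps of the host genes ran from −0.24 to 0.15. Across genes the pools of a group correlated at 0.956 with antibody alone and at 0.986 or above in the other groups (Pearson's r, genes not being independent replicates). Results for antibody alone rest on which pool is used. Without pool 1, Snhg5 was 1.00 above non-manipulated embryos (limma, adjusted p = 0.0101) and Snhg8 0.62 above (adjusted p = 0.0436). Without pool 2 the differences were −1.04 for Snhg5 (adjusted p = 0.004) and −0.58 for Snhg8 (adjusted p = 0.0268). Snhg6 was called lower either way (adjusted p = 0.00629 and 0.000311). These p-values assume that the lone pool varies like the pools of the other groups.

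Whether the antibody difference depended on Trim21 mRNA was tested by the interaction, the first difference minus the second. With limma 0 of the 8 host genes passed at an adjusted p under 0.05 (2 at an unadjusted p under 0.05), where 4.1% of all genes did, 3.48% below 0 and 0.625% above. The Snhg3 cluster came nearest with −1.36 ± 0.29 (adjusted p = 0.0541), followed by Gas5 with −0.84 ± 0.20 (adjusted p = 0.0726) and Snhg1 with −0.61 ± 0.26 (adjusted p = 0.359). Snhg3 passed after quantile normalization (−1.03, adjusted p = 0.0476). For Snhg6, Snhg12 and Snhg4 the interaction was 0.01 ± 0.39, 0.06 ± 0.36 and 0.08 ± 0.36. The size of the interaction depended on the antibody-alone pool used: that of Snhg5 was −1.22 without pool 1 and 0.81 without pool 2. The sign also turned for Snhg4, Snhg6, Snhg8 and Snhg12. It stayed negative for Snhg3 (−1.60 without pool 1 and −1.12 without pool 2), Gas5 (−0.89 and −0.80) and Snhg1 (−0.83 and −0.39).

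**Figure D2:**
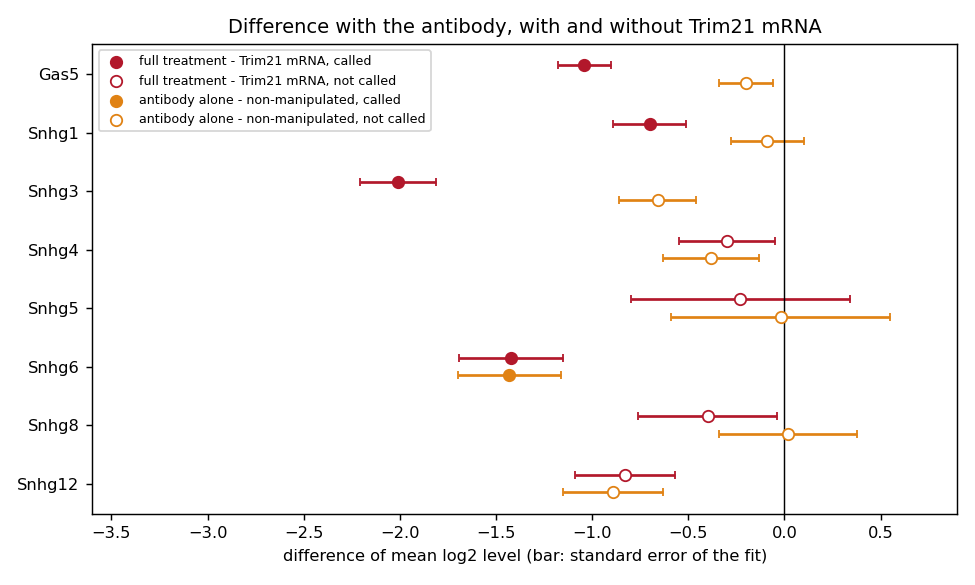
Difference of mean log2 level made by the antibody with Trim21 mRNA (red, full treatment minus Trim21 mRNA) and without it (orange, antibody alone minus non-manipulated), for each host gene. Bars are standard errors of the limma fit, and filled points passed an adjusted p under 0.05. The points of Snhg6 lie almost together (−1.42 and −1.43), while those of Snhg3 lie apart (−2.01 and −0.66).

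Trim21 mRNA alone against non-manipulated embryos shows what the message and its injection changed. With limma 0 of the 8 host genes passed at an adjusted p under 0.05, and 0 at an unadjusted p under 0.05. A single gene of all 30888 did pass (0.00324%), a rise. Differences ran from −0.52 ± 0.57 in Snhg5 to 0.08 ± 0.20 in the Snhg3 cluster, with a median of −0.29 against 0.04 for all genes. All host genes but Snhg3 had both Trim21 mRNA pools below both non-manipulated pools, 7 of 8, where 26.9% of all genes did. In a fit of only these 4 arrays Snhg5 passed, a fall (adjusted p = 0.0397).

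The full treatment was also set beside the other 2 groups, and these contrasts share its pools with the first. Against antibody alone, 3 of the 8 fell, where 10.5% of all genes were lower and 13.4% in the range of level. These were Snhg3 by −1.28 ± 0.20 (limma, adjusted p = 0.00738), Gas5 by −1.01 ± 0.14 (adjusted p = 0.00397) and Snhg1 by −0.94 ± 0.19 (adjusted p = 0.0176). After quantile normalization they were −0.87, −0.64 and −0.62 and still passed. In a fit of only these 4 arrays 0 passed. The Snhg3 call was lost without pool 2 of the full treatment (adjusted p = 0.0542). The Snhg1 call was also lost without that pool, and without any 1 of the non-manipulated or Trim21 mRNA pools (adjusted p from 0.0506 to 0.101). The other 5 overlapped, with Snhg6 at −0.30 ± 0.27 and Snhg12 at −0.30 ± 0.26. The size of the differences depended on the antibody-alone pool used. Without its pool 1 Snhg3 differed by −1.52 and Snhg5 by −1.74, and without its pool 2 by −1.04 and 0.29.

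Against non-manipulated embryos, 5 of the 8 fell, where 16.7% of all genes were lower and 26.7% in the range of level. The values were −1.93 ± 0.20 for Snhg3 (limma, adjusted p = 0.000716), −1.73 ± 0.27 for Snhg6 (adjusted p = 0.00428), −1.21 ± 0.14 for Gas5 (adjusted p = 0.000999), −1.19 ± 0.26 for Snhg12 (adjusted p = 0.0144) and −1.03 ± 0.19 for Snhg1 (adjusted p = 0.00749). Snhg5, Snhg8 and Snhg4 stood at −0.75 ± 0.57, −0.68 ± 0.36 and −0.56 ± 0.25 and did not pass. All 8 had both full-treatment pools below both non-manipulated pools, like 28.9% of all genes. After quantile normalization the 5 values were −1.20, −1.63, −0.52, −0.79 and −0.41, and that of Snhg1 no longer passed (adjusted p = 0.0667). Snhg1 and Snhg12 were lost without either non-manipulated pool, which left 3, and Snhg12 without pool 2 of the full treatment (adjusted p = 0.0824). In a fit of only these 4 arrays all 8 passed, and the share of all genes that passed there is not given here. Leaving out either antibody-alone pool, which is no part of this contrast, cannot change the differences. It changed the shared spread of the fit, and with it the calls.

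Of 29 snoRNAs listed as lying inside the host genes, 4 had a cluster of their own, all placed inside their host by RefSeq. Snord87, inside Snhg6, was at 7.90 and 7.67 in the non-manipulated pools, 7.30 and 6.47 in the Trim21 mRNA pools, 6.65 and 6.57 with antibody alone, and 10.06 and 10.93 in the full treatment. The full treatment stood far above all other pools, whereas its host Snhg6 was low there. Snord87 rose by 3.61 ± 0.36 against Trim21 mRNA (limma, adjusted p = 0.000596), while Snhg6 fell by 1.42. With antibody alone Snhg6 fell, and the difference of Snord87 from non-manipulated embryos was −1.18 ± 0.36 (adjusted p = 0.0906).

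The other 3 differed from Snord87. Snora73a, inside Snhg3, was at 9.70 and 9.49 in the non-manipulated pools, 9.70 and 9.54 in the Trim21 mRNA pools, 4.62 and 7.33 with antibody alone, and 9.50 and 10.34 in the full treatment. Snora73b, from the same host, was at 11.25 and 10.53, 11.24 and 10.72, 4.83 and 7.79, and 10.78 and 11.87. Both were low only in the antibody-alone pools, which differed by more than 2 log2 units, and the full treatment overlapped the groups without antibody.

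Against non-manipulated embryos Snora73a fell by −3.62 ± 0.78 with antibody alone (limma, adjusted p = 0.0335) and Snora73b by −4.58 ± 0.90 (adjusted p = 0.0247). For Snora73a this was −2.27 without pool 1 of antibody alone and −4.98 without pool 2. The calls of both were lost without any 1 of the non-manipulated or Trim21 mRNA pools (adjusted p from 0.0591 to 0.203), and that of Snora73a also without either full treatment pool (0.0619 for each) and after quantile normalization (0.066). In a fit of only these 4 arrays neither passed (adjusted p = 0.157 and 0.131). In the full treatment against Trim21 mRNA their differences were 0.30 ± 0.78 and 0.35 ± 0.90, where the Snhg3 cluster had fallen by 2.01. The 2 snoRNAs are near-copies whose signals the array may not separate, and the Snhg3 cluster is itself also annotated with Snora73a. Snora16a, inside Snhg12, stayed between 4.40 and 5.06 on all arrays, with differences of 0.09 ± 0.20 and −0.18 ± 0.20 in the 2 antibody contrasts (adjusted p = 0.756 and 0.56).

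**Figure D3:**
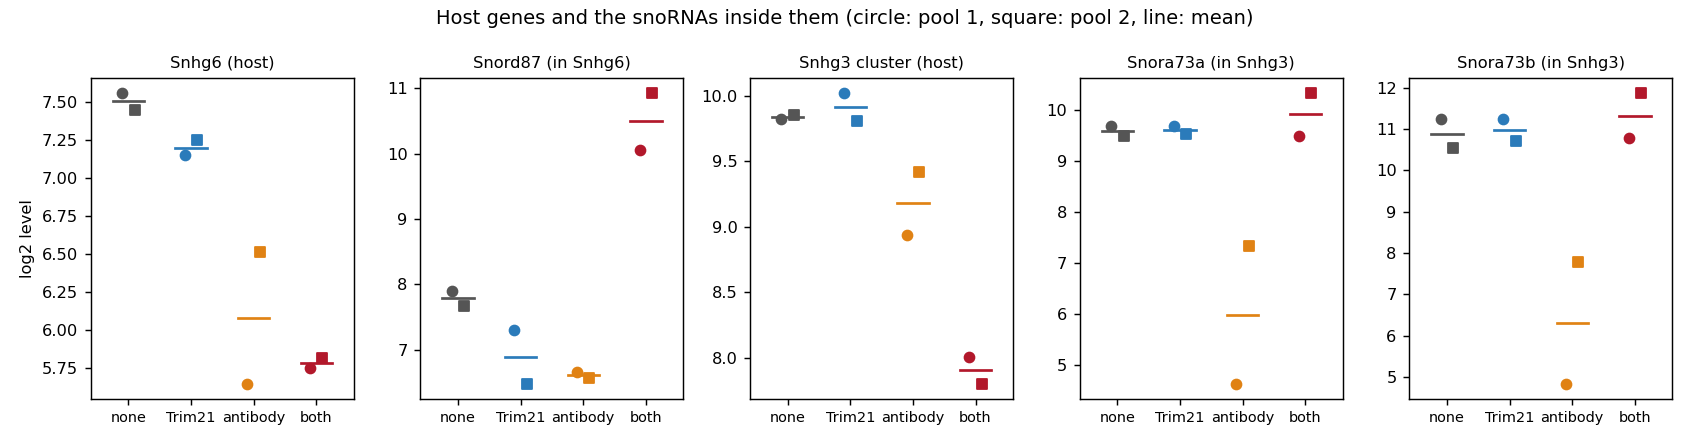
Log2 level of Snhg6 and Snhg3 and of the snoRNAs inside them that have clusters of their own, in every pool (circles pool 1, squares pool 2, lines group means; groups named as in the plot of levels by pool). Axes have their own ranges and do not start at 0. Snord87 is highest in the full treatment (10.06 and 10.93), where Snhg6 is at 5.75 and 5.81, and Snora73a and Snora73b are lowest with antibody alone.

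Related genes were followed through lists chosen for their role, as counts and medians. These are to be read against 14.6% of all genes lower and a median of 0.21 in the first antibody contrast. In the second these were 7.35% and 0.18. The lists were not matched to the host genes in level: Rpl4 and Nop58 stood at 16.68 and 14.8 in non-manipulated pool 1. The standard deviation of all levels was 2.38 and 2.27 in the full treatment pools and 2.66 in both Trim21 mRNA pools. The part of level and scaling in the list medians was not tested. In the full treatment against Trim21 mRNA, 2 of 14 other noncoding snoRNA hosts fell and 1 rose, with a median of −0.39 against −0.76 in the 8. Zfas1 (named with Snord12), a noncoding host of box C/D snoRNAs, fell by −1.45 ± 0.17 (limma, adjusted p = 0.00131) and Snhg15 by −1.09 ± 0.19 (adjusted p = 0.00711), while Snhg18 rose by 1.29 ± 0.20 (adjusted p = 0.00398). With antibody alone against non-manipulated embryos 1 of these 14, Snhg18, passed, a rise of 0.81 ± 0.20 (adjusted p = 0.0479), and the median was −0.06.

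Of 41 listed hosts that code for proteins, 26 were measured, and 21 of these fell in the full treatment against Trim21 mRNA, with a median of −1.70. Among them were Nop58, a core snoRNP protein (−3.47 ± 0.17), Ncl, the nucleolar protein nucleolin (−3.22 ± 0.23), Rpl4, a protein of the large ribosomal subunit (−2.98 ± 0.15), and Eef2, the translocation factor of translation (−2.68 ± 0.20), with limma's adjusted p from 6.46e-05 to 0.000174. With antibody alone against non-manipulated embryos 9 of the 26 fell, with a median of −0.90, including Eef2 (−2.49 ± 0.20, adjusted p = 0.0021) and Nop58 (−1.08 ± 0.17, adjusted p = 0.0136). Ribosomal protein genes have many near-identical pseudogenes, so the share of each in a cluster is uncertain.

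Genes for the proteins that build snoRNPs, the particles in which snoRNAs work, were followed by their RNA. All 18 measured of 19 fell in the full treatment against Trim21 mRNA, with a median of −2.45, led by the assembly factors Znhit6 (−4.62) and Znhit3 (−4.39) and by Nolc1 (−3.90), a nucleolar chaperone of snoRNPs. Nop56, Nop58 and Dkc1 are on this list and on that of the protein-coding hosts. The counts of these lists are thus not independent. With antibody alone 9 of the 18 fell, with a median of −0.93. Of 17 nonsense-mediated decay factors 11 were measured. In the full treatment 7 of them fell, with a median of −1.10, including Smg5 (−2.93 ± 0.19), Smg8 (−2.77 ± 0.23), Upf1, the central helicase of the pathway (−1.91 ± 0.20), and Rbm8a, of the exon junction complex (−3.23 ± 0.36). With antibody alone 6 of the 11 fell, with a median of −0.82, including Smg5 (−2.86 ± 0.19) and Upf1 (−2.23 ± 0.20).

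**Figure D4:**
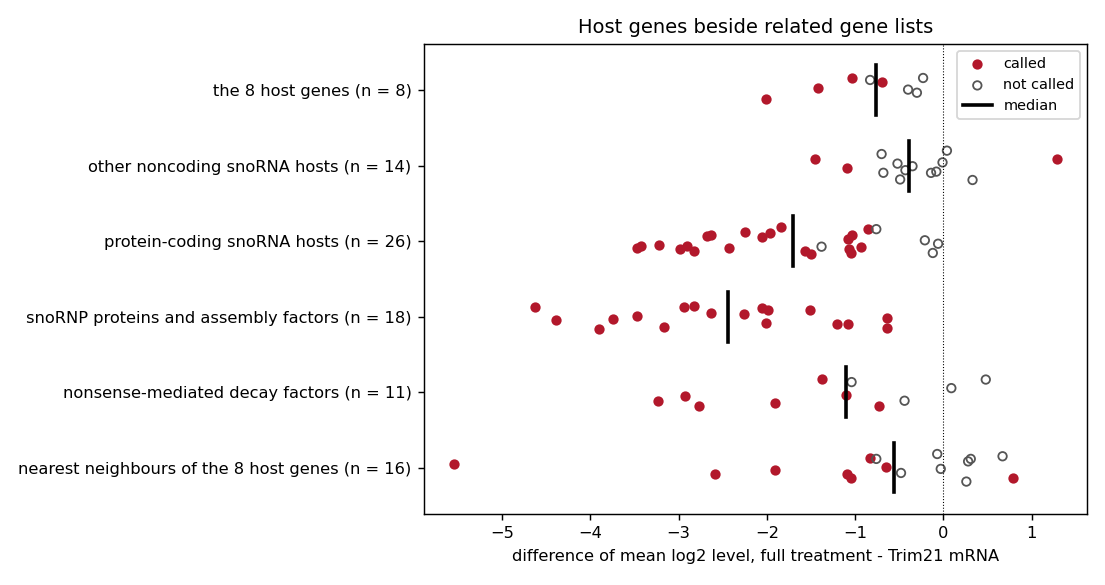
Difference of mean log2 level between the full treatment and Trim21 mRNA for each gene of the 8 host genes and of 5 related lists (filled: adjusted p under 0.05, open: not passed, black bars: medians; vertical spread within a list has no meaning). The median of the 8 is −0.76, that of the protein-coding hosts −1.70 and that of the snoRNP proteins −2.45. The lists are not matched to the 8 in level, and some genes are shared between lists.

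Among themselves the 8 profiles over the 8 arrays correlated positively in all 28 pairs, given as a description since the arrays share groups and scaling. Pearson's r ran from 0.432 (Snhg5 with Snhg6) to 0.974 (Snhg6 with Snhg12), with a median of 0.748. Gas5 and Snhg3 correlated at 0.941, and Snhg5 and Snhg8, the genes with the widest gap between the antibody-alone pools, at 0.956. The mean level of the 8 was 8.25 and 8.19 in the non-manipulated pools, 7.95 in both Trim21 mRNA pools, 7.35 and 8.18 with antibody alone, and 7.14 and 7.04 in the full treatment. Of 9356 named genes with a mean level of at least 6, those most like this profile were Kif18a, a mitotic kinesin (r = 0.998), Pole3, a DNA polymerase epsilon subunit, Fxr1, an RNA-binding protein, Nars, an aminoacyl-tRNA synthetase, and Pdha1, of pyruvate dehydrogenase (r = 0.995 for each). Kif18a, for example, stood at 12.46 and 12.41, 12.07 and 12.06, 11.32 and 12.42, and 10.99 and 10.73 in the same order of groups.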

How the data were processed

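The authors deposited 1 log2 level per transcript cluster and array. Per the labels, RNA was amplified and labelled with the GeneChip WT Pico kit. Affymetrix Expression Console was used per the submitters' processing notes. Its version, the summarisation and the genome build were not given in the sources used here. The deposited column of non-manipulated pool 1 was checked as a score, since 1 cell holds a number over 100 that no log2 level can be. That row was dropped, leaving 65955 of 65956. By the array's annotation with RefSeq symbols, 31257 clusters named 1 gene, 219 a host and small RNAs inside it, 1273 several genes (left out) and 33206 none, and 2094 had symbols updated. The cluster with the highest mean was kept, which gave 30888 genes. limma 3.58.1 in R 4.3.3 (lmFit, eBayes, two-sided) fitted 4 group means to 8 arrays (4 residual and 6.83 total degrees of freedom, median standard error 0.22), and was checked on simulated data. P-values were adjusted by Benjamini-Hochberg within a comparison and called under 0.05. The number of arrays limits the precision.

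Alternatives were quantile normalization, median centring, cyclic loess, a low-level filter (mean of at least 6), a trended robust prior, averaging the clusters of a gene, only the groups compared, a replicate block and each array left out. The 8 genes and the lists were chosen with earlier results of these data known. Named were the 8 genes, up to 4 called genes of smallest p per list, the 5 profiles most like their mean, the snoRNAs inside them and, chosen after their values were seen, single markers.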

Additional observations from a re-analysis of the deposited data

Results flagged for a closer look

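Snord87, the snoRNA inside Snhg6, differed from Trim21 mRNA in the full treatment by 3.61 ± 0.36 and from non-manipulated embryos with antibody alone by −1.18 ± 0.36, and the difference of these differences, 4.79 ± 0.51, passed the test itself (limma, adjusted p = 0.00645). In the full treatment both its pools (10.06 and 10.93) lay above both Trim21 mRNA pools (7.30 and 6.47), and with antibody alone both (6.65 and 6.57) lay below both non-manipulated pools (7.90 and 7.67). The interaction was lost without either non-manipulated pool (adjusted p = 0.0569 and 0.0552). The host Snhg6 had an interaction of 0.01 ± 0.39 (adjusted p = 0.997). Several other genes named here also had an interaction that passed, with the antibody difference lower in the presence of Trim21 mRNA. Among them, with limma's adjusted p from 0.00365 to 0.023, were the snoRNP proteins Znhit6 (−3.73), Znhit3 (−3.39), Nop58 (−2.40), Dkc1 (−2.11), Nolc1 (−1.76) and Fbl (−1.58). The protein-coding hosts Ncl (−2.22) and Rpl4 (−2.19), and Wdr74 beside Snhg1 (−3.03), lay in the same range of adjusted p. Rbm8a passed by a narrow margin with −2.43 (limma, adjusted p = 0.05 as rounded).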

How the results depend on the processing

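The number of called host genes among the 8 in the full treatment against Trim21 mRNA was 4, and 3 to 5 over scaling, filter and fit alternatives. It ran from 2 to 6 when 1 array was left out, and was 1 when only the 2 clusters with a single name were kept. Single-name clusters, all clusters and a spread per group were alternatives added after the data were seen. Antibody alone against non-manipulated gave 1, with 0 in a fit of only the groups compared and 0 to 6 with 1 array left out. Trim21 mRNA against non-manipulated gave 0, with 1 in only the groups compared and 2 with a spread per group. The full treatment against antibody alone gave 3, with 0 in only the groups compared, 0 of the single-name clusters and 1 to 8 with 1 array left out. Against non-manipulated it gave 5, with 8 in only the groups compared, 8 with a spread per group, 1 of the single-name clusters and 3 to 8 with 1 array left out. The interaction gave 0, with 1 after quantile normalization, 1 with the low-level filter and 0 to 5 with 1 array left out. The fit with a replicate block called 3, 1, 0, 3, 5 and 0 in these comparisons. Counts under the alternatives stand without the share of all genes called in the same refit. They cannot be set against the shares of the main fit. Deviations of pools with the same number correlated at −0.192 to 0.144, so the numbers are no pairing.

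Over single genes 1723 of 1934 values kept their direction and side of the threshold, 115 no longer passed, 46 newly passed and 50 changed direction. After quantile normalization the direction turned for Snhg5 in the full treatment against Trim21 mRNA (0.50) and against non-manipulated (0.11), for Gas5, Snhg1 and Snhg5 with antibody alone (0.13, 0.21 and 0.31), for Snora16a (−0.24 and −0.19 in the same full treatment contrasts), for Snhg20 against non-manipulated (0.10), and in the interaction for Snhg4 (−0.04), Snhg5 (0.20) and Snhg6 (−0.17). After cyclic loess it turned for Snhg5 (0.39) and Snora16a (−0.23) against Trim21 mRNA, Snora16a (−0.18) against non-manipulated, Gas5, Snhg1 and Snhg5 with antibody alone (0.08, 0.18 and 0.26), and in the interaction Snhg4 (−0.02), Snhg5 (0.13) and Snhg6 (−0.05). After median centring it turned for Snora16a (−0.11) against Trim21 mRNA, Snhg8 with antibody alone (−0.11), and in the interaction Snhg6 (−0.07) and Snhg12 (−0.02). The causes were not tested.

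With 1 array left out, values that turned ran as follows. Against Trim21 mRNA the full treatment gave −0.12 to 0.72 for Snora73a, −0.20 to 0.89 for Snora73b and −0.12 to 0.30 for Snora16a. Against non-manipulated it gave −0.10 to 0.75 for Snora73a and −0.11 to 0.98 for Snora73b. Antibody alone gave −0.31 to 0.13 for Snhg1, −1.04 to 1.00 for Snhg5 and −0.58 to 0.62 for Snhg8. Trim21 mRNA gave −0.03 to 0.19 for Snhg3. The full treatment against antibody alone gave −0.56 to 0.19 for Snhg4, −1.74 to 0.29 for Snhg5, −0.73 to 0.14 for Snhg6 and −0.69 to 0.09 for Snhg12. The interaction ran from −0.30 to 0.45 for Snhg4, −1.22 to 0.81 for Snhg5, −0.43 to 0.45 for Snhg6, −1.02 to 0.19 for Snhg8 and −0.33 to 0.45 for Snhg12.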

Other observations

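The protein-coding genes nearest to the 8 host genes on either side in RefSeq were followed in the full treatment against Trim21 mRNA. Of 16 such genes 7 fell and 1 rose, where 14.6% of all genes were lower and 8.78% higher. Their median was −0.56, against −0.76 in the host genes and 0.21 for all genes. Rcc1 and Matr3 are also on the list of protein-coding hosts. A change shared by a region was not tested. Wdr74, a ribosome assembly factor beside Snhg1, had levels of 14.58 and 14.41 in the Trim21 mRNA pools against 8.81 and 9.10 in the full treatment, a fall of −5.54 ± 0.35 (limma, adjusted p = 0.000112), where the Snhg1 cluster fell by 0.70. Slc3a2, on the other side of Snhg1, differed by −0.03 ± 0.28. Beside Snhg3, Rcc1, a chromatin-bound exchange factor for Ran, fell by −1.05 ± 0.23 (adjusted p = 0.0193). Both neighbours of Snhg5, which itself did not pass, fell: Syncrip, an RNA-binding protein, by −2.59 ± 0.41 (adjusted p = 0.00475) and Zfp949 by −1.91 ± 0.43 (adjusted p = 0.0192). Sgk3, a kinase gene beside Snhg6, fell by −1.09 ± 0.15 (adjusted p = 0.00223) with the full treatment and differed by −0.24 ± 0.15 (adjusted p = 0.311) with antibody alone, where Snhg6 fell. These neighbours were picked from their list after their values were seen.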
